A study of Mus musculus with 4 samples.

Results

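JunB-binding in regulatory T (Treg) cells was examined at sites that lie far from the starts of protein-coding genes and carry no peak of its partners BATF and IRF4. These distal JunB-alone peaks were chosen by 2 criteria. The JunB peak shared no base with any BATF peak or any IRF4 peak of Junb-sufficient cells, and its centre lay farther than 100 kb from every transcription start site (TSS) of a protein-coding transcript. Of 29659 JunB peaks, 5114 met both (17.2%, exact 95% interval 16.8 to 17.7%), out of 16111 JunB peaks without a partner peak and 7084 JunB peaks beyond 100 kb. The peak positions, the TSS positions and the partner peaks were thus used for the choice and are described here without a test. The sequences under the peaks, IRF4 peaks of Junb-deficient cells and the identity of the nearest genes were not used. Distances to genes and places inside or outside genes are therefore not free of the choice. For comparison, 2 other sets of JunB peaks were used, the 10997 JunB-alone peaks within 100 kb of a TSS and the 1331 peaks beyond 100 kb that overlapped BATF and IRF4 peaks alike (distal triple peaks).

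The data were peak lists from chromatin immunoprecipitation-sequencing (ChIP-seq), in which DNA fragments bound by a protein are recovered with an antibody and sequenced. CD4+CD25+ Treg cells from spleens of young adult C57BL/6 mice were activated through CD3 and CD28 in medium with IL-2 for 60 h. There were 4 libraries with 1 library per condition, JunB, BATF and IRF4 in Junb-sufficient cells and IRF4 in Junb-deficient cells. Samples are labelled Foxp3cre JUNB+/+ and Foxp3cre JUNBFl/Fl, whereas the methods of the study describe Junb fl/fl and Cd4Cre Junb fl/fl mice, in which the Cre acts in all T cells rather than in Treg cells alone. Both genotypes would then carry the floxed allele. Another label field exchanges the BATF and IRF4 antibodies of Junb-sufficient cells against the sample titles, and the titles were followed. The choice of distal JunB-alone peaks is the same either way because both partners were excluded. Values given for BATF alone or IRF4 alone in Junb-sufficient cells depend on the titles being right. JunB was not precipitated from Junb-deficient cells among these libraries, so neither the deletion nor antibody background at these peaks could be checked, and the lists hold no expression values with which to check the cell type. The libraries held 21127029 to 27399986 tags (aligned reads), and the JunB peaks were called with no control library, at a minimum of 10 tags and 4-fold over the surrounding 10 kb. The BATF and IRF4 lists required at least 19 tags, so the lack of a partner peak was judged at a stricter limit than the presence of JunB. The filter on local signal removed 7688 of 21258 candidate BATF peaks and 18613 of 49706 of IRF4, against 1644 of 31333 of JunB. Peak heights are not given, and place in the JunB list was taken in their stead. As there were no replicates, intervals express counting error alone and leave out the spread between cell preparations, and they treat peaks as independent although neighbouring peaks can share a locus.

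JunB belongs to the AP-1 family of basic leucine zipper proteins, which bind as dimers to the palindrome TGACTCA, read as TGAGTCA on the other strand. In activated T cells JunB pairs with BATF, and the pair can bind together with IRF4 at composite elements (AICE), in which a short IRF site lies beside the AP-1 site. Enhancers are often far from the promoters they act on, and in lymphocytes some large genes and regulators are surrounded by long stretches without other genes.

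The first-listed distal JunB-alone peaks were picked separately for an AP-1 consensus, for an AICE and for overlap with an IRF4 peak of Junb-deficient cells. They are printed 5′ to 3′ on the plus strand of mm9, with the AP-1 consensus, or the whole AICE, in capitals.
*L3mbtl3* region, chr10:26263970-26264120: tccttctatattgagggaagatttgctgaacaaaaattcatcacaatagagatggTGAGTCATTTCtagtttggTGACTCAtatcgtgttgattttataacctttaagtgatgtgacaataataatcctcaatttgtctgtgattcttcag
*Dusp4* region, chr8:35734891-35735041: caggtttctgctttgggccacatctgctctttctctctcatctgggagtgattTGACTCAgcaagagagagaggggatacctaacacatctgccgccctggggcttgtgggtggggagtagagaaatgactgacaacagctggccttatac
*Tigd2* region, chr6:59265347-59265497: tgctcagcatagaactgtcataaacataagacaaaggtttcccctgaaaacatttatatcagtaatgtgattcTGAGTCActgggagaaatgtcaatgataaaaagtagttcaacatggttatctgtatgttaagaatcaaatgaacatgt
*Etnk1* region, chr6:143314531-143314681: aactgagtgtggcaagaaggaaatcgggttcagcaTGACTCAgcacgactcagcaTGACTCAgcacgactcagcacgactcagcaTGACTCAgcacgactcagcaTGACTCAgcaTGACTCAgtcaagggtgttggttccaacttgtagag
*Tbl1xr1* region, chr3:21864642-21864792: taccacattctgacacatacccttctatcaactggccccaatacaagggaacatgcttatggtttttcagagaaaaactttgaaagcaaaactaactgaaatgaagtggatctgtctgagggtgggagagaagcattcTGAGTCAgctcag
*Sntb1* intron, chr15:55626526-55626676: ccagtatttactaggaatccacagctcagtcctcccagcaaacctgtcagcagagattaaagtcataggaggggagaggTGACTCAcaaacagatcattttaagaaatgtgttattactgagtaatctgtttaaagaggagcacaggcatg
second *Tbl1xr1* region peak, chr3:21851949-21852099: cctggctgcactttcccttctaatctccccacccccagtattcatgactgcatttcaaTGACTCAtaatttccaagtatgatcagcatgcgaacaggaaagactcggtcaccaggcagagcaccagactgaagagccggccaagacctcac
*Cblb* region, chr16:51911968-51912118: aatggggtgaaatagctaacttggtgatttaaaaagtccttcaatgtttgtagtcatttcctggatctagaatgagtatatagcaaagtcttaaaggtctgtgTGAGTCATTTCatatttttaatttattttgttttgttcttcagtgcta
*Calcrl* region, chr2:84067150-84067300: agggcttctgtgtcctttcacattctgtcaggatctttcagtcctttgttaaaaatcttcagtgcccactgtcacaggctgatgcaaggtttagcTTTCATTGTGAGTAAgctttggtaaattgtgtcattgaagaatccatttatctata

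Of the 10 distal JunB-alone peaks that stood first in the JunB list, 7 held the AP-1 consensus within 100 bp of their centre. The peak near *L3mbtl3*, a chromatin-binding repressor, stood at place 102 of 29659, lay 169 kb from the TSS and held one AP-1 site inside an AICE and another beside it. It missed the nearest BATF peak by 26 bp and the nearest IRF4 peak by 88 bp, and it overlapped an IRF4 peak of Junb-deficient cells. The peak near *Dusp4*, a phosphatase that shuts off MAP kinases, stood at place 223, 121 bp from an IRF4 peak and 233 bp from a BATF peak. It too overlapped an IRF4 peak of Junb-deficient cells. Those near *Tigd2* (place 257) and in an intron of *Sntb1* (place 1383) lay 278 bp and 68 bp from the nearest partner peak. The peak near *Etnk1*, at place 778, differed from these in that the nearest partner peak was 51639 bp away, and its AP-1 sites stood in a short tandem array. The 2 peaks near *Tbl1xr1*, at places 990 and 1945, lay 2906 bp and 72 bp from a partner peak, and the one near *Cblb*, which encodes a ubiquitin ligase that restrains T cell receptor signalling, 1366 bp. The *Tbl1xr1* peak at place 1945 overlapped an IRF4 peak of Junb-deficient cells. The peak near *Calcrl*, at place 1790, held an AICE of the spaced form and no AP-1 consensus, and lay 4488 bp from an IRF4 peak. Of the 10 first-listed distal JunB-alone peaks, 6 lay within 1 kb of a BATF or IRF4 peak that they did not touch.

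The 3 first-listed peaks without any TGANTCA, and the 3 first-listed ones that in addition had no partner peak within 10 kb, are printed in lower case, with runs of 8 or more A or T bases in capitals in the last 3 of the set. The latter 3 were chosen after their values were seen, to show peaks that stand apart from partner peaks.
*Pgk2* region, chr17:39984822-39984972: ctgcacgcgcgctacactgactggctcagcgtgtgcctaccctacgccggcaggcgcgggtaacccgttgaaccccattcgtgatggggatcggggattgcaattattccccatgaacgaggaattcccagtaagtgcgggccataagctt
*Jmjd1c* region, chr10:66418274-66418424: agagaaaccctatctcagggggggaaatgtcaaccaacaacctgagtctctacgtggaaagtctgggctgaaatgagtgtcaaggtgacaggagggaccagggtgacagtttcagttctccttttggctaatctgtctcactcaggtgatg
*Gnaq* intron, chr19:16404991-16405141: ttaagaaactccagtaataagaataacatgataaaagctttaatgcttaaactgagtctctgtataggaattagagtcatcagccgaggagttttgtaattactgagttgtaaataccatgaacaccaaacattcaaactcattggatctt
*Rtl1* region, chr12:111161633-111161783: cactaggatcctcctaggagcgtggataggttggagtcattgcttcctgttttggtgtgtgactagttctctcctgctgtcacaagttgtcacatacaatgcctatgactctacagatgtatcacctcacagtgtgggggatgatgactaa
*Cnksr2* region, chrX:154651331-154651481: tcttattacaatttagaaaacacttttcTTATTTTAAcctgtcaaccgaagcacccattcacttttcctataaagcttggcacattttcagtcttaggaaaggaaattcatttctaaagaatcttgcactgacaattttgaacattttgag
*Olfr161* region, chr16:3337753-3337903: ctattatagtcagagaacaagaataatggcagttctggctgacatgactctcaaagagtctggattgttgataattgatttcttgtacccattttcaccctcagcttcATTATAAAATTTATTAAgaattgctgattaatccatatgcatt

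The peak near *Pgk2* stood at place 14, the highest of the set, and its GC content was 58.9%. Its letters are those of small-subunit ribosomal RNA, and 34.8% of its 21-base words occurred elsewhere in the genome. It lay 89 bp from a BATF peak. The peaks near *Jmjd1c* (place 570) and in an intron of *Gnaq* (place 1233) lay 1698 bp and 864 bp from an IRF4 peak. The first distal JunB-alone peak without a partner peak within 10 kb and without TGANTCA, near *Rtl1*, appeared only at place 3678, and the one near *Olfr161* was built mostly of repeated sequence (83.4% of its 21-base words).

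Most distal JunB-alone peaks (the members) lay well beyond the 100 kb limit. Their median distance from the nearest TSS was 267 kb (quartiles 159 and 514 kb), 1337 of them (26.1%) lay beyond 500 kb and 354 (6.92%) beyond 1 Mb, up to 2318 kb. The 3 members nearest to the limit lay 100037 to 100072 bp from the TSSs of *Bcl2l11*, *Mpp7* and *Ighv1-73*, and the 3 JunB-alone peaks just excluded lay 99915 to 100000 bp from those of *Tspan3*, *Prr23a* and *Dlg2*. Sequence farther than 100 kb from a TSS made up 963 Mb of 2556 Mb examined (37.7%) and held 31.7% of the JunB-alone peaks but 14.9% of the JunB peaks that overlapped both partners.

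The density of distal JunB-alone peaks changed little with distance from genes, whereas triple peaks thinned out. There were 5.48 distal JunB-alone peaks per Mb at 100 to 200 kb from a TSS (Poisson 95% interval 5.23 to 5.73), 4.98 (4.75 to 5.21) at 200 to 500 kb, 5.60 (5.25 to 5.96) at 500 to 1000 kb and 5.57 (5.00 to 6.18) beyond that. Within 100 kb the density of JunB-alone peaks was 6.91 per Mb. Triple peaks fell from 4.77 per Mb within 100 kb to 2.35 (2.20 to 2.52) at 100 to 200 kb, 1.12 (1.01 to 1.23), 0.461 (0.366 to 0.573) and 0.204 (0.109 to 0.350) per Mb in the same bins. The densities count all sequence that is known, and how much of it unique reads could cover was not tested.

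**Figure D1:**
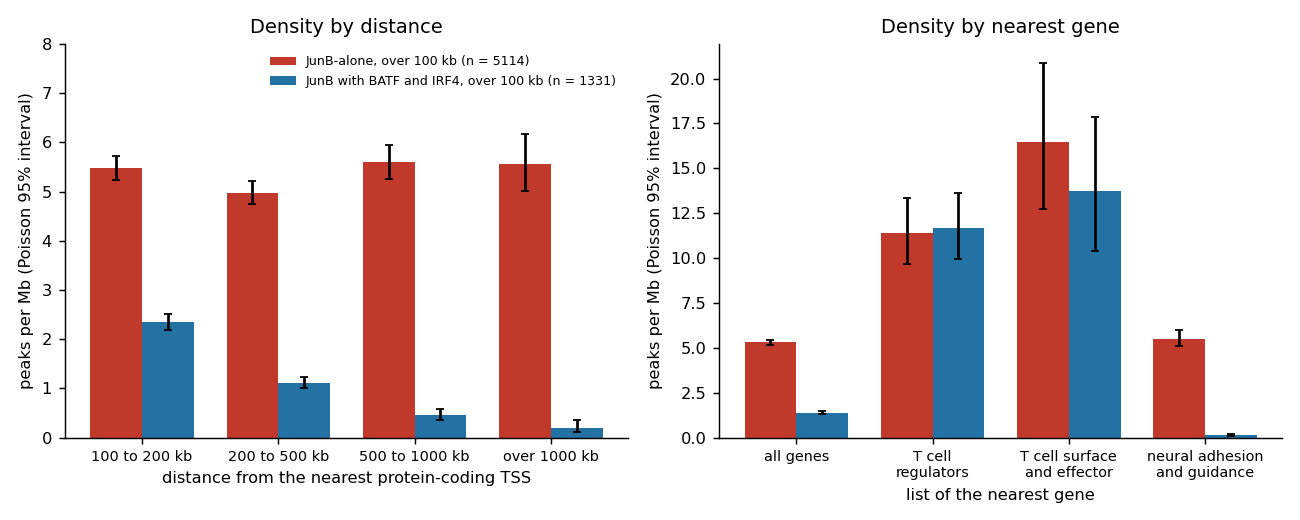
Peaks per Mb of sequence over 100 kb from a protein-coding TSS, by distance from the TSS (left) and by the list of the nearest gene (right), for distal JunB-alone peaks (red) and distal triple peaks (blue), with Poisson 95% intervals. The red bars stay between 4.98 and 5.60 per Mb over all distances while the blue ones fall from 2.35 to 0.204, and near neural genes only the blue bar is far below that for all genes.

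The peaks were weaker than other JunB peaks, as judged from the list. Their median place was at 67.2% of the list (quartiles 48.0 and 84.1%), against 61.7% for JunB-alone peaks within 100 kb and 17.8% for distal triple peaks. When the list was divided into 10 equal parts, they made up 1.08% of the first (32 peaks) and 28.3% of the last (838 peaks). Triple peaks ran the other way, from 14.4% to 0.978%. The order is not named in the headers, but the AP-1 share of all JunB peaks fell along it from 47.9% in the first part to 12.9% in the last. Since members were chosen for the lack of partner peaks and stood low in the list, comparisons of sequence below were made within the 10 parts of the list and pooled as a Mantel-Haenszel odds ratio, with its 95% interval and no p-value.

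The AP-1 consensus was infrequent under distal JunB-alone peaks. It was found within 100 bp of the centre of 375 of the 5114 (7.33%, 6.63 to 8.08%), where all JunB peaks gave 24.5%. The same windows moved 5 kb downstream, clear of any peak, gave 2.46% (2.05 to 2.92%), so the share was above its surroundings. JunB-alone peaks within 100 kb held the consensus in 14.8% (14.2 to 15.5%) and distal triple peaks in 41.3% (38.7 to 44.0%). At equal place in the list the odds of an AP-1 site were 0.497 times those of JunB-alone peaks within 100 kb (0.442 to 0.560) and 0.246 times those of distal triple peaks (0.203 to 0.297). The latter comparison is not free of the choice of members, since BATF itself binds AP-1 sites.

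The strongest members did not follow this pattern. In the first part of the list 20 of 32 distal JunB-alone peaks (62.5%, 43.7 to 78.9%) held the consensus, compared with 68 of 190 (35.8%, 29.0 to 43.0%) within 100 kb and 202 of 428 distal triple peaks (47.2%, 42.4 to 52.0%). The odds ratio against JunB-alone peaks within 100 kb was 2.99 there (1.38 to 6.49) and 0.476 (0.422 to 0.538) over the rest of the list. Against distal triple peaks it was 1.86 there, with an interval (0.889 to 3.91) that includes 1, and 0.201 (0.165 to 0.245) over the rest. In the second part the share had dropped to 26.8% (33 of 123), and from the fourth part on it lay between 4.89% and 8.32%. Over parts 4 to 10, which held 4688 of the 5114 members, 6.06% (5.39 to 6.78%) had the consensus against 2.46% (2.03 to 2.95%) in the shifted windows. In the first part 16 of the 32 members lay within 1 kb of a BATF or IRF4 peak, against 3.69% of those in parts 4 to 10. In the first part 85 of 190 JunB-alone peaks within 100 kb of a TSS (44.7%, 37.5 to 52.1%) had one too, with overlapping intervals (31.9 to 68.1% for members).

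**Figure D2:**
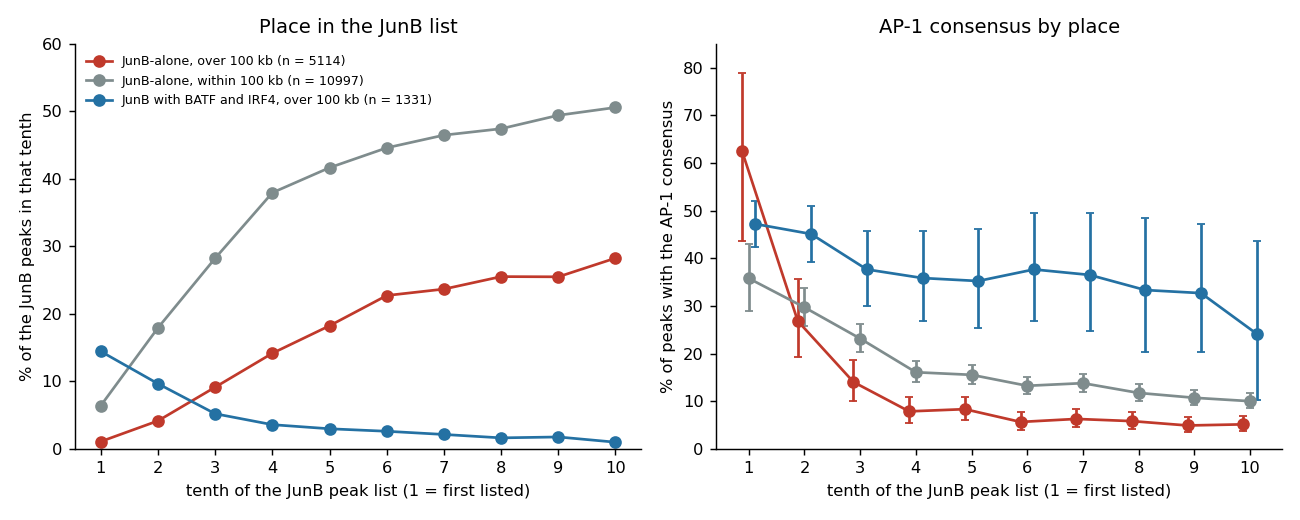
Left, percent of the JunB peaks in each of 10 parts of equal size of the JunB list (1 is first listed) that were distal JunB-alone (red), JunB-alone within 100 kb (grey) or distal triple peaks (blue). Right, percent of each set with the AP-1 consensus within 100 bp of the centre, with exact 95% intervals. Distal JunB-alone peaks rise from 1.08% to 28.3% of the peaks, and their AP-1 share drops from 62.5% in the first part to 5.13% in the last.

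Matches to the AP-1 consensus were densest at the peak centre but spread around it. They reached 0.555 per kb in the 50 bp on one side of the centre and 0.551 on the other, and 0.117 to 0.262 per kb beyond 100 bp. JunB-alone peaks within 100 kb peaked at 1.33 per kb and distal triple peaks at 4.21. Of the 375 members with a match, 146 (38.9%) had one within 25 bp of the centre, against 50.9% of JunB-alone peaks within 100 kb and 57.5% of distal triple peaks, and 33 had more than 1 match. The site had A before and T after it in 41 of 371 members (11.1%, 8.05 to 14.7%), in 11.7% (10.2 to 13.3%) of JunB-alone peaks within 100 kb and in 17.1% (14.1 to 20.5%) of distal triple peaks. Of the 357 members whose site could be read with its flanks as a 21-base word, 337 (94.4%) had a word found once in the genome and 7 one found 10 or more times. Keeping reads at unique positions alone favours such words.

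Distal JunB-alone peaks were rich in A and T. Their windows had a median GC content of 33.3% (quartiles 28.9 and 38.3%), against 38.3% for JunB-alone peaks within 100 kb and 40.8% for distal triple peaks. The windows 5 kb downstream, in the same gene-poor sequence, had a median of 38.8%, and 3576 of 5048 members (70.8%) had a lower GC content than their own shifted window. The same held for 63.2% of JunB-alone peaks within 100 kb and 54.3% of distal triple peaks. The median difference from the shifted window was -4.98 percentage points for members, -3.48 for JunB-alone peaks within 100 kb and -0.995 for distal triple peaks. The dip was wider than the 151 bp peak, with a mean GC content of 33.4% to 34.0% out to 150 bp on either side of the centre and 38.5% to 38.9% at its outer ends 1 kb away. The 6-base words that exceeded the shifted windows most were made of A and T. ATATAT was found in 19.8% of the 151 bp windows of members and 9.69% of the shifted ones, and 19 of the 25 leading words held no G or C. Under JunB-alone peaks within 100 kb ATATAT stood in place 12 (12.2% against 6.88%), and 8 of the 25 leading words held no G or C. The word GACTCA, which covers most of the AP-1 site, was in place 108 of the members' words (9.25% against 6.00%), but led the words of JunB-alone peaks within 100 kb (16.6% against 6.84%) and of distal triple peaks (42.7% against 6.73%). Words were ranked after the values were seen. Chromatin was cut with micrococcal nuclease, which prefers A and T, and whether this moved with the base composition of these peaks was not tested.

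**Figure D3:**
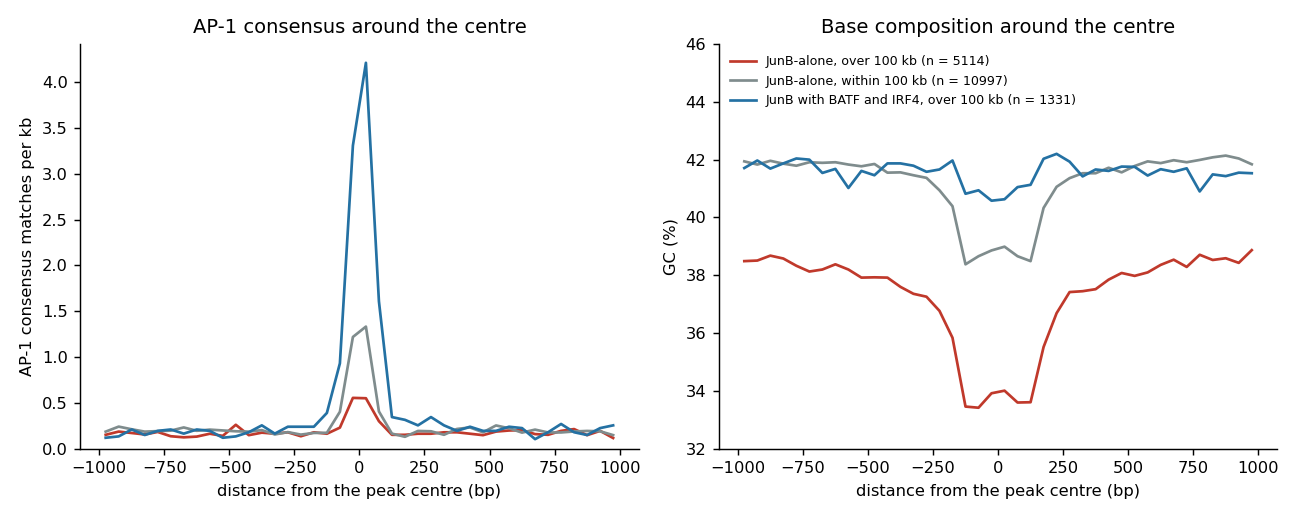
Mean number of AP-1 consensus matches per kb (left) and mean GC content (right) in 50 bp steps within 1 kb of the peak centre, for distal JunB-alone peaks (red), JunB-alone peaks within 100 kb (grey) and distal triple peaks (blue). The red AP-1 line reaches 0.555 per kb at the centre where the blue one reaches 4.21, and the red GC line dips from about 38.5% to 33.4%.

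Against distal triple peaks the AP-1 share was lower at every base composition, here without regard to place in the list. Among members with a GC content of 40% or more, 171 of 896 (19.1%, 16.6 to 21.8%) held the consensus. JunB-alone peaks within 100 kb had 22.8% (21.6 to 24.0%), an overlapping interval, and distal triple peaks 48.6% (45.0 to 52.3%). Between 30% and 40% GC the shares were 6.43% (5.52 to 7.45%), 11.02% (10.2 to 11.9%) and 32.8% (28.9 to 36.8%). Under 30% GC, which held 31.7% of the members, they were 2.28% (1.61 to 3.13%), 3.36% (2.52 to 4.40%) and 8 of 32 peaks (11.5 to 43.4%).

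Composite elements were likewise rare. An AICE match, meaning GAAA directly before TGANTCA or TGANTAA, or TTTC with 4 bases between, was found in 75 members (1.47%, 1.16 to 1.83%), where all JunB peaks gave 3.70%. The shifted windows gave 0.317% (0.181 to 0.514%). JunB-alone peaks within 100 kb had 1.84%, and at equal place in the list the odds ratio was 0.872 with an interval of 0.666 to 1.14 that includes 1. Against distal triple peaks (8.04%) it was 0.282 (0.188 to 0.424). Pairs of IRF sites were as frequent under members (4.05%) as in their shifted windows (4.00%), whereas distal triple peaks held them in 10.7%.

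Sites of other factors were no more frequent under members than 5 kb away beyond counting error. The RUNX site TGTGGTT, read by a family of T cell regulators, was in 4.99% of members and 4.79% of shifted windows. It was in 7.10% of JunB-alone peaks within 100 kb, and the odds ratio was 0.711 (0.614 to 0.823). The ETS site CCGGAA was in 30 members (0.587%) against 1.89% within 100 kb, and the CRE site TGACGTCA, to which some AP-1 dimers bind, in 2 members (0.0391%) against 0.218%. The core of the site of CTCF, an insulator protein at the boundaries of chromatin loops, was in 24 members (0.469%, 0.301 to 0.698%), no more than in shifted windows (0.515%), while JunB-alone peaks within 100 kb held it in 2.18% (odds ratio 0.206, 0.135 to 0.314). The sequence around these sets differed likewise, as the shifted windows of JunB-alone peaks within 100 kb held the CTCF core in 1.41% and the ETS site in 1.55%, the latter against 0.911% for members. In all, 12 odds ratios over the whole list were computed for motifs and overlaps, each also in parts of the list, without adjustment. The 2 first-listed members with a CTCF core are shown with the core in capitals, the first near *Tox*, which encodes a nuclear regulator of T cell development and exhaustion, and the second near *Jmjd1c*.
*Tox* region, chr4:7144374-7144524: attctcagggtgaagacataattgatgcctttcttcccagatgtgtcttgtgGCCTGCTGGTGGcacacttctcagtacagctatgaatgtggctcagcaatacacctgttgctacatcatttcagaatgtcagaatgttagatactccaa
second *Jmjd1c* region peak, chr10:66316034-66316184: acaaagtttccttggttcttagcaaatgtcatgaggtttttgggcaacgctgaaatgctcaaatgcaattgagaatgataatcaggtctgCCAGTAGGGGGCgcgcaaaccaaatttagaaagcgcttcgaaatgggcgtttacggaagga

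Few distal JunB-alone peaks had a partner in their neighbourhood. A BATF or IRF4 peak lay within 300 bp of 129 members (2.52%), within 1 kb of 256 (5.01%, 4.42 to 5.64%) and within 10 kb of 866 (16.9%, 15.9 to 17.99%). Of JunB-alone peaks within 100 kb, 7.27%, 15.1% and 52.2% had one at these distances. The median distance of members was 375854 bp to a BATF peak and 280402 bp to an IRF4 peak, compared with 24572 bp and 10084 bp. These values are a description, as partner peaks were part of the choice. The BATF and IRF4 lists had peaks of 613 bp that were kept at least 1224 bp apart, so a second partner peak close to a stronger one would not have been listed.

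**Figure D4:**
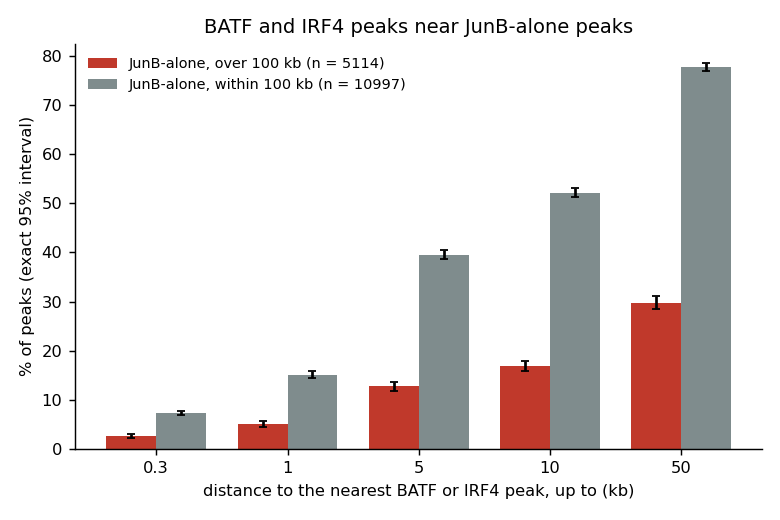
Percent of distal JunB-alone peaks (red) and of JunB-alone peaks within 100 kb (grey) that had a BATF or IRF4 peak up to the distance on the horizontal axis, with exact 95% intervals. At 10 kb the bars stand at 16.9% and 52.2%.

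The AP-1 share went with this distance. It was 27.7% (22.3 to 33.6%) in the 256 members within 1 kb of a partner peak, 18.9% (15.8 to 22.2%) in the 610 members at 1 to 10 kb and 4.45% (3.85 to 5.11%) in the 4248 farther away. JunB-alone peaks within 100 kb of a TSS had 22.9% (20.9 to 25.02%), 20.1% (18.9 to 21.4%) and 8.14% (7.41 to 8.91%) in the same classes. With a partner peak within 10 kb, the intervals of the 2 sets therefore overlapped, and beyond 10 kb they did not. Members near a partner peak stood higher in the list (median place 45.2% within 1 kb and 69.6% beyond 10 kb) and had more G and C (40.8% and 32.3%), and the parts of distance, strength and base composition were not told apart.

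IRF4-binding without JunB was next compared. Only 87 distal JunB-alone peaks (1.70%, 1.36 to 2.09%) overlapped an IRF4 peak of Junb-deficient cells, where all JunB peaks gave 34.9%. As members were chosen for having no IRF4 peak in Junb-sufficient cells, JunB-alone peaks within 100 kb are the closer comparison, and 633 of these (5.76%, 5.33 to 6.21%) overlapped one. At equal place in the list the odds ratio was 0.305 (0.243 to 0.382). How densely IRF4 peaks of Junb-deficient cells lie within and beyond 100 kb in general was not measured, so the ratio was not set against it. Without regard to place, the intervals were apart for peaks without a partner peak within 10 kb, of which 0.659% (0.438 to 0.951%) of members and 3.65% (3.16 to 4.19%) of peaks within 100 kb of a TSS overlapped one. With a partner peak within 1 kb the shares were 10.6% (7.07 to 15.0%) and 9.57% (8.20 to 11.1%), and at 1 to 10 kb 5.25% (3.62 to 7.33%) and 6.92% (6.16 to 7.74%), with overlapping intervals. In the first part of the list 5 of 32 members (15.6%, 5.28 to 32.8%) and 20 of 190 peaks within 100 kb (10.5%, 6.55 to 15.8%) overlapped one, with an odds ratio of 1.57 whose interval (0.545 to 4.55) includes 1. Of the 87 members, 27 had an IRF4 peak of Junb-sufficient cells within 1 kb (31.0%, 21.6 to 41.9%), 28 had none within 10 kb (32.2%, 22.6 to 43.1%), and 24 held the AP-1 consensus (27.6%, 18.5 to 38.2%). For the 633 peaks within 100 kb these shares were 23.5%, 33.7% and 17.4%. With 1 IRF4 library per genotype, an overlap in one list alone cannot be told apart from the scatter of peak calls between libraries.

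Most members lay outside genes. Of the 5114, 4037 (78.9%) were intergenic, 1065 (20.8%) in introns and 12 (0.235%) in exons of protein-coding genes, against 69.4%, 29.98% and 0.601% of distal triple peaks. For JunB-alone peaks within 100 kb of a TSS the shares were 44.8%, 50.3% and 4.86%, a contrast on which the distance limit itself bears. Introns of *Dmd*, the very long gene of the muscle protein dystrophin, held 16, those of *Csmd3*, a large gene active in the brain, and of *Rad51l1*, a gene of homologous recombination, 13 each, and those of *Erbb4*, a neuregulin receptor, and *Fam190a* 11 each. In all 445 genes had a member in an intron. A TSS of a long intergenic non-coding RNA lay within 100 kb of 109 members (2.13%, 1.75 to 2.57%), as compared with 5.63% (4.46 to 7.01%) of distal triple peaks and 15.5% of JunB-alone peaks within 100 kb. A TSS of any non-coding gene or pseudogene lay within 100 kb of 1995 members (39.0%, 37.7 to 40.4%). The same held for 44.5% of distal triple peaks and 64.3% of JunB-alone peaks within 100 kb. Bodies of genes that are not protein-coding held 129 members (2.52%), of which 13 lay in *Gm14005*, next to *Bcl2l11*, and 4 in *Pvt1*, next to *Myc*.

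The gene nearest to most members was *Myc*, the driver of cell growth in activated lymphocytes. In all 1718 of 3881 genes with sequence beyond 100 kb were nearest to a member, 759 of them to 1 member, and the 10 genes with most members held 214 (4.18%). *Myc* had 32 members in 1.24 Mb, at 166 to 862 kb from its TSS on both sides, and with 28 distal triple peaks. It was followed by *Diap2*, a formin (23 members), the ephrin receptor gene *Epha7*, the protocadherin gene *Pcdh9* and *Zpld1* (21 each), *Csmd3*, *Trps1*, which encodes a GATA-type repressor, and *Dmd* (20 each), *Pcdh7* (19) and the potassium channel gene *Kcnt2* (17), with which *Cblb* and *Gata3* tied. Of the 10 genes, *Myc* was the one on a list of T cell genes. Of these 10 genes, 5 had no distal triple peak, and *Epha7*, *Pcdh9*, *Csmd3* and *Kcnt2* had no member with the AP-1 consensus, while 7 of the 32 members around *Myc* did. The 10 genes were ranked by the count of members, which long gene-poor territories raise. Per Mb, *Myc* had 25.8 (17.6 to 36.4) and *Pcdh7* 5.20 (3.13 to 8.13), against 5.31 over all genes.

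Of 178 genes on a list of T cell regulators and a list of T cell surface and effector genes, 69 had sequence beyond 100 kb and 44 were nearest to a member. Together they had 223 members in 17.8 Mb, 12.6 per Mb (10.96 to 14.3), or 2.36 times the density over all genes (2.06 to 2.70). The median gene of these 69 had 7.41 members per Mb, compared with 0 over all 3881 genes. For genes with at least 0.5 Mb beyond 100 kb the medians were 13.1 (13 genes) and 4.83 (559 genes). Distal triple peaks were raised more, with 216 around these genes and 8.80 times (7.66 to 10.1) their density over all genes. A raised pooled density was not particular to T cell genes. The 12 odorant receptor genes (*Olfr*) with sequence beyond 100 kb had 17 members in 1.18 Mb, 14.4 per Mb, or 2.71 times the density over all genes (1.58 to 4.33). None of these 17 held the AP-1 consensus (upper limit 19.5%), and 2 had a partner peak within 10 kb. They lay nearest to 5 of the 12 genes, and 76.5% had another JunB peak within 10 kb. The median *Olfr* gene had 0 members per Mb, as over all genes and unlike the T cell genes. The gene lists were drawn up with earlier results of these data known. Neighbouring peaks share loci, so that these intervals are too narrow. When peaks with a BATF or IRF4 peak within 5 kb were left out, an alternative chosen after seeing the data, the density of members around T cell genes was 1.29 times that over all genes (1.06 to 1.56). In the first 50% of the list it was 4.03 times (3.29 to 4.88).

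Members around the T cell genes differed from all members in other readouts. The AP-1 consensus was in 47 of 223 (21.1%, 15.9 to 27.0%, against 7.33% of all members). A BATF or IRF4 peak lay within 10 kb of 157 (70.4%, against 16.9%) and another JunB peak within 10 kb of 62.3% (against 21.5%). Their median GC content was 37.8% (against 33.3%) and their median place 52.4% of the list (against 67.2%). Among all members the AP-1 share was 27.7% with a partner peak within 1 kb and 18.9% at 1 to 10 kb. Whether the share around T cell genes differs at equal distance from a partner peak was not tested. By gene, 16 had 5 members or more. *Cblb* had 17 members and 14 distal triple peaks, all 17 intergenic and 112 to 645 kb from its TSS. *Gata3*, a regulator of T helper 2 and effector Treg cells, had 17 members, 6 of them with the AP-1 consensus and 2 with an IRF4 peak of Junb-deficient cells, beside 24 distal triple peaks. *Ets1* had 11 members, *Tox* 10, *Klf6* 9, *Satb1* 8 and *Zeb2* 7. *Ikzf2*, which encodes the Treg transcription factor Helios, had 8 in 0.189 Mb, 6 of them within the gene. *Bcl2*, *Dusp4*, *Foxp1* and *Rora* had 6 each, and *Bcl6*, *Runx2* and *S1pr1*, which encodes the receptor that guides lymphocytes out of lymph nodes, had 5 each. The 6 members nearest to *Foxp1* lay inside genes other than *Foxp1*, and of those nearest to *Dusp4* 3 overlapped an IRF4 peak of Junb-deficient cells. For 13 of the 16 genes the interval of the density lay above the 5.31 per Mb over all genes, but they were picked by their count. For *Zeb2* (4.00 per Mb, 1.61 to 8.25), *Rora* and *Runx2* it included that value. *S1pr1* was the one of the 16 without a distal triple peak.

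**Figure D5:**
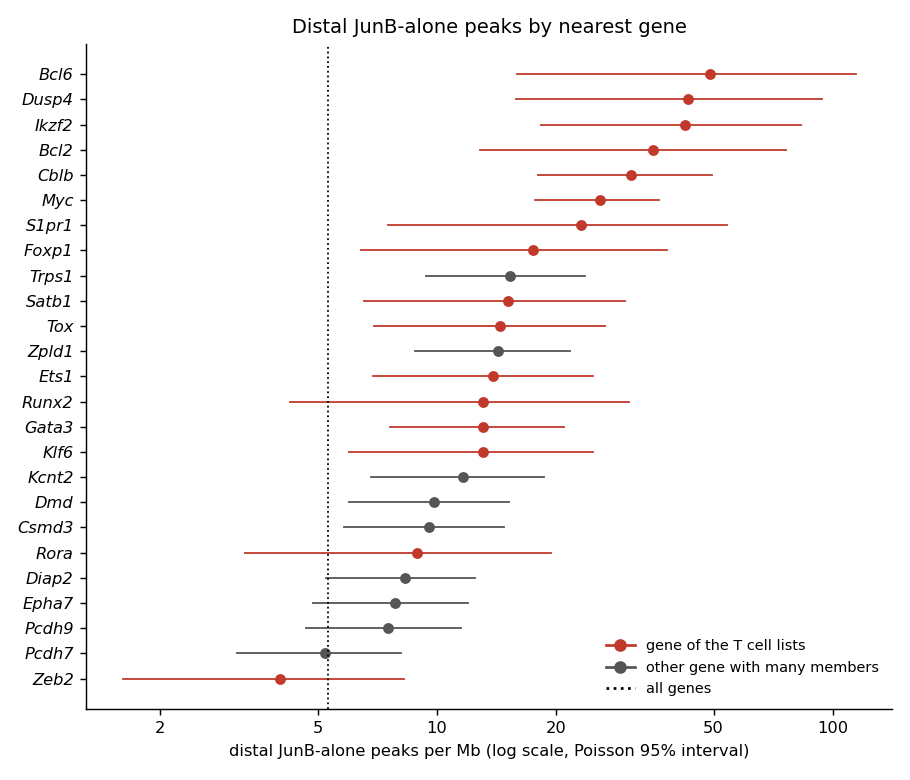
Distal JunB-alone peaks per Mb of sequence over 100 kb from a protein-coding TSS, by nearest gene, on a log scale with Poisson 95% intervals, for 16 genes of the T cell lists with 5 members or more (red) and the other 9 of the 10 genes with most members (dark grey). The dotted line marks 5.31 per Mb over all genes. *Bcl6*, *Dusp4* and *Ikzf2* are at 42.3 per Mb or more, and *Pcdh7* and *Zeb2* at 5.20 and 4.00.

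Around neural adhesion and guidance genes distal JunB-alone peaks were as dense as elsewhere, but triple peaks were scarce. The 89 listed genes with sequence beyond 100 kb had 597 members in 108 Mb, 5.51 per Mb (5.08 to 5.97), which is 1.04 times the density over all genes (0.956 to 1.12). The same territories held 13 distal triple peaks, 0.120 per Mb (0.0639 to 0.205) or 0.0868 times their density over all genes. Of the 597 members 18 (3.02%, 1.80 to 4.72%) held the AP-1 consensus, and 3.52% of their shifted windows did. A partner peak lay within 10 kb of 16 members (2.68%), another JunB peak within 10 kb of 10.6%, and 1 overlapped an IRF4 peak of Junb-deficient cells. Their median GC content was 30.3% and their median place 69.9%. An AP-1 share above that of the surrounding sequence was not detectable at these 597 peaks.

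Distal JunB-alone peaks beyond 200 kb from genes held fewer AP-1 sites than nearer ones. The AP-1 share was 10.9% (9.49 to 12.3%) in the 1897 members at 100 to 200 kb, 5.69% (4.69 to 6.84%) in the 1880 at 200 to 500 kb, 4.17% (3.01 to 5.62%) in the 983 at 500 to 1000 kb and 5.93% (3.71 to 8.92%) in the 354 beyond 1 Mb. The shifted windows gave 2.10%, 2.47%, 3.08% and 2.54%. Median GC content fell from 35.3% to 32.8%, 31.3% and 30.1% over the same bins, and the share with a partner peak within 10 kb from 27.9% to 14.4%, 5.90% and 1.98%. The median place in the list was 66.7% to 69.0% in all 4 bins.

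Distal JunB-alone peaks were mostly isolated. Another JunB peak lay within 10 kb of 1102 members (21.5%, 20.4 to 22.7%), where all JunB peaks gave 44.3%, JunB-alone peaks within 100 kb 48.1% and distal triple peaks 50.5%. A JunB peak that overlapped both partners lay within 10 kb of 489 members (9.56%). Allowing gaps of up to 50 kb, 2284 members (44.7%) fell into 897 runs of 2 or more, and 38 runs held 5 or more. Runs were not counted for the other sets or for peaks scattered at the same density, so this share is no measure of clustering. The run with most members, 16 in 48.0 kb on chromosome X near *Gm3750* and *Gm10921*, consisted of sequence that occurs more than once in the genome (a median of 90.9% of 21-base words) and held no triple peak. The next 5 runs were mostly unique sequence, and their genes are named here after the values were seen. A run of 15 members over 250 kb lay near *Ptger4*, a prostaglandin E2 receptor gene, with 9 triple peaks among its 26 JunB peaks. One of 14 members over 164 kb lay near *Bcl2l11*, the gene of the death inducer BIM, also with 9 triple peaks among 26 JunB peaks, and one of 13 over 131 kb near *Myc*, with 6 among 25. The runs of 12 members each near *Rad51l1* and near *Nfkbiz* and *Zpld1* had 7 triple peaks among 20 JunB peaks and 6 among 19. Repeated sequence was not typical of members. In 485 of them (9.48%) at least 50% of 21-base words were repeated, against 12.7% of JunB-alone peaks within 100 kb, 4.51% of distal triple peaks and 22.3% of the shifted windows. Only reads at unique positions were kept, which limits peaks in repeated sequence but not the shifted windows.

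All chromosomes examined carried distal JunB-alone peaks. Their density ranged from 3.84 per Mb on chromosome 7 (3.23 to 4.54) to 7.46 on chromosome 15 (6.66 to 8.33), which carries *Myc*. Distal triple peaks varied more widely, from 0.438 per Mb on chromosome X (0.296 to 0.626) to 2.87 on chromosome 13 (2.39 to 3.42). On chromosome X there were 347 members, 5.07 per Mb (4.55 to 5.64), about the density on the autosomes (5.33, 5.18 to 5.48), but 30 distal triple peaks, against 1.45 per Mb (1.38 to 1.54) on the autosomes. Members on chromosome X held the AP-1 consensus in 12 of 347 (3.46%). The intervals of the members thus overlapped between chromosome X and the autosomes, and those of the triple peaks did not. The methods of the study do not name the sex of these mice, and whether the number of X copies bears on this contrast was not tested.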

How the data were processed

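Peak lists of 4 ChIP-seq libraries were used. Per the labels and the methods of the study, the authors used Bowtie2 for alignment to mm9, kept unique positions and called peaks in each library separately with HOMER (version 4.8 in the submitters' processing notes). The deposited score is 1 in all lists and was not used. Place in the JunB list stood for strength. Peaks with equal tag counts appear to be grouped by chromosome, since 98.3% of successive peaks in the last 50% of the list shared one (56.0% in the first 10%), so place is coarse. Libraries had 16.0 to 17.9 M tags after duplicates were removed. No tag counts per peak are given, so precision was expressed over peaks.

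All peaks lay within the mm9 chromosomes. TSSs (45974 positions) were those of protein-coding transcripts in GENCODE M1. Overlap meant 1 bp. Motifs were matched on both strands in 201 bp windows, and shifted windows lay 5 kb downstream, clear of peaks in all lists. Shares have exact Clopper-Pearson 95% intervals, densities Poisson intervals over 1 kb bins nearest to a gene, and odds ratios Robins-Breslow-Greenland intervals. The procedures were tested on simulated data. Named genes were the 10 nearest to most members, all T cell list genes nearest to 5 or more, and those of the 10 first-listed members. Genes named for members within their bodies, at the 100 kb limit, at the largest run or with other printed sequences were taken from the values outside these rules. Further genes are marked as chosen after seeing the values. Members and gene lists were chosen with earlier results of these data known. Sequences on chromosome 18 were not printed. Python 3.11.15, NumPy 2.4.6, pandas 2.3.3, SciPy 1.17.1, Numba 0.67.0 and matplotlib 3.10.9 were used. The repeat of the ChIP-seq experiment, RNA-seq and other assays were not analysed here.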

Additional observations from a re-analysis of the deposited data

How the results depend on the processing

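No paired analysis was possible because each condition had 1 library. Of the 12 results, only the odds and density ratios have a direction, and no alternative value reversed one. The split at the first of the 10 parts of the list, given below, was not among the alternatives. Odds and density ratios kept their direction with an interval clear of 1 in all 39 alternatives, 24 shares and medians stayed within the interval or quartiles of the main value and 31 did not, and the number of members stayed within 1.5-fold in 4 alternatives (4461 to 7300) and not in 3. Alternatives were run for the AP-1 and Junb-deficient IRF4 odds ratios and not for those of other motifs. They stayed below 1, the AP-1 odds ratio against distal triple peaks at 0.112 without strata and 0.112 without partners within 5 kb. In the first part of the list alone, with 32 members, the AP-1 odds ratio against JunB-alone peaks within 100 kb was 2.99 (1.38 to 6.49). The AP-1 odds ratio against distal triple peaks (1.86, 0.889 to 3.91) and that of Junb-deficient IRF4 (1.57, 0.545 to 4.55) had intervals there that include 1. The T cell density ratio ranged from 1.29 without partners within 5 kb to 4.03 in the first 50% of the list. The other values, whose cause was not tested, were as follows. Counting the TSSs of all annotated genes left 2995 members (10.1% of JunB peaks), 18.8% of them with another JunB peak within 10 kb. A limit of 50 kb gave 24.6% of JunB peaks, with 9.10% AP-1, 2.38% overlapping Junb-deficient IRF4 and 27.2% with a near JunB peak. A limit of 200 kb gave 3217 members (10.8%), with 5.25%, 1.06% and 16.4%. Leaving out partners within 1 kb gave 16.4% of JunB peaks, with 6.26%, 1.24% and 18.1%. Leaving out those within 5 kb, chosen after seeing the data, gave 15.0%, with 4.82%, 0.874% and 12.6%, and 1.14% AICE. The first 50% of the list gave 1387 members (9.35%) at a median place of 36.9%, fixed by construction, with 12.2% AP-1, 2.88% overlapping Junb-deficient IRF4, 33.5% with a near JunB peak and 2.02% AICE. TSSs of all transcripts of protein-coding genes, also chosen after seeing the data, gave 16.4% of JunB peaks. Windows reaching 50 bp from the centre gave 4.83% AP-1 and 0.939% AICE, and TGANTCA was in 11.9%. A Junb-deficient IRF4 peak lay within 1 kb of the centre of 5.22%, and another JunB peak within 5 kb of 14.1%. The lists give neither tag counts nor a second library, so binding below the calling threshold and the spread between experiments could not be assessed. Whether peaks called without a control library include sites recovered irrespective of the antibody was not tested.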
